A study of Drosophila melanogaster with 12 samples.

Results

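Open chromatin far from genes was examined in the second (T2) legs of *Drosophila melanogaster* pupae. A distal peak was defined as a peak of the OreR list that was shorter than 800 bp, overlapped a peak of the eworo list by at least 1 bp, and lay 2 kb or more from the locus of every named gene on 2L, 2R, 3L, 3R, 4 and X. In total 3004 of the 42015 OreR peaks met this definition (7.15%). They made up 8.37% of the 35878 short shared peaks on these arms, of which a further 28930 overlapped a named locus and 3944 lay within 2 kb of one. The definition used position, length and sharing, and set no limit on peak height or expression. Sharing still depends on height, because a shared peak had to be called in both lists.

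Legs of 2 strains were compared at 20 to 28 h after puparium formation, when leg trichomes are specified. Oregon R (OreR) has a small naked valley, the patch of the femur without trichomes, and eworo, which carries the alleles ebony[4], white ocelli[1] and rough[1], has a large one. Each strain had 3 RNA-Seq libraries and 3 ATAC-Seq samples, and the ATAC-Seq reads of a strain were pooled before peak calling. Each strain therefore had 1 peak list without replicates, so differences between the strains in peaks are given as values with no test, and no interval below covers variation between samples. MACS2 kept 56972082 of 193178857 tags in OreR and 53862732 of 170109980 in eworo. RNA-Seq values are FPKM, fragments per kilobase of transcript scaled to the mapped fragments of the library, and a gene with a mean above 1 FPKM in both strains was counted as expressed. Of 25 leg epidermis markers, 24 were expressed, with sums of 891 to 1310 FPKM in the eworo libraries and 1215 to 1385 FPKM in the OreR libraries. Whole legs also hold other cell types, and 20 of 25 muscle markers, 11 of 20 neuron markers, all 10 tracheal markers, 8 of 13 haemocyte markers and 11 of 14 fat body markers were expressed. In such bulk tissue, fewer cells of a type and less RNA per cell cannot be told apart.

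ATAC-Seq marks DNA that a transposase can reach, which includes active promoters and enhancers. Enhancers of developmental genes in *Drosophila* can lie far from the promoter they act on, and genes for transcription factors and secreted signals are often bordered by long stretches without other genes. The nearest gene on each side is thus a description of position, and need not be the gene that an open region acts on.

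Distal peaks were sparser than other open chromatin and were unevenly spread over the arms. The territory 2 kb or more from named loci covered 24.5 Mb, or 18.3% of the arms, and held 123 distal peaks per Mb (95% exact Poisson interval 118 to 127, counting error only). The same kind of peak reached 276 per Mb within 2 kb of named loci and 304 per Mb inside them. On 2L there were 155 per Mb (144 to 167), on 3L 137 (128 to 146) and on 3R 135 (125 to 146), and the intervals of these 3 arms overlapped. Lower values were found on 2R, at 97.0 per Mb (88.7 to 106), and on X, at 78.5 per Mb (69.7 to 88.2). Chromosome 4 had 21 distal peaks and 198 per Mb, with an interval of 122 to 302 that included the values of 2L, 3L and 3R.

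Part of this order came with a few long gaps between named loci. The 40 gaps of 80 kb or more took up 6.74 Mb of the territory and held 134 distal peaks. Without them the density was 162 per Mb over all arms, 172 on 2L, 146 on 2R, 199 on 3L, 164 on 3R and 103 on X. The order of 2L and 3L was thereby exchanged, while X remained the lowest. The limit of 80 kb was chosen after the data had been seen. Among windows of 1 Mb, the one with the most distal peaks ran from 10 to 11 Mb on 3L, with 133 distal peaks in 0.295 Mb of territory, or 450 per Mb, beside a median of 144 per Mb over the 85 windows with at least 0.1 Mb of territory.

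Both the density and the sharing of peaks declined with distance from named loci. The median distance of a distal peak was 5227 bp. The nearest to the limit lay at 2002 bp, and the closest short shared peak left out lay at 1998 bp. Density was 176 per Mb at 2 to 5 kb, 154 at 5 to 10 kb, 120 at 10 to 20 kb, 44.4 at 20 to 50 kb and 8.58 beyond 50 kb. Over the same steps, the share of short distal OreR peaks that overlapped an eworo peak was 82.6%, 81.3%, 78.5%, 65.9% and 30.1%. The last value came from 28 of 93 peaks (95% Wilson interval 21.7 to 40.1%). By construction, peaks this far from named loci can lie only in the longest gaps or at arm ends. The 1 Mb windows with the most distal territory lay towards arm ends, at 26 to 27 Mb on 3L and 3 to 4 Mb on 2R. They held 2 distal peaks in 0.871 Mb and 4 in 0.744 Mb. Whether distance from loci or position on the arm goes with these declines was not tested. Territory was counted up to the last feature of each arm, whether or not reads can be placed there. Over all distances the share was 79.4% (78.1 to 80.6%), against 85.8% (84.8 to 86.8%) within 2 kb of named loci and 87.7% (87.3 to 88.0%) inside them. Counted from the eworo list, 2971 of 3979 short distal peaks overlapped an OreR peak, which is 74.7% (73.3 to 76.0%). Neighbouring peaks are not independent, and these intervals cover counting error only.

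**Figure D1:**
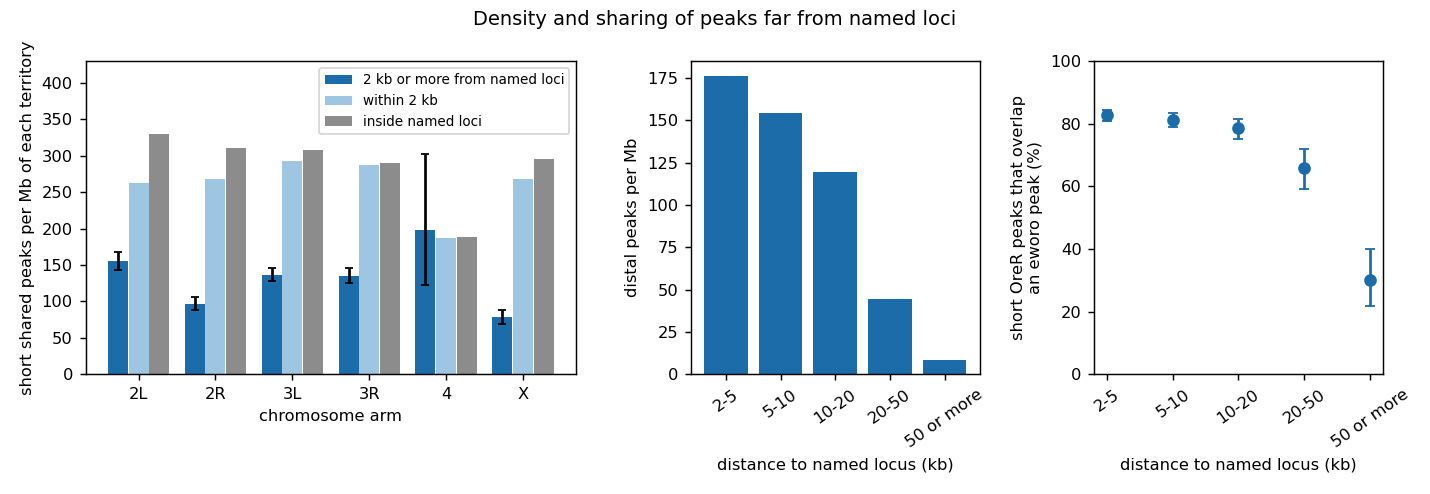
The left panel shows short shared peaks per Mb of territory (bars) by chromosome arm for the territory 2 kb or more from named loci, within 2 kb of them and inside them, with 95% exact Poisson intervals on the first. The other panels show distal peaks per Mb and the percentage of short OreR peaks that overlap an eworo peak against distance from the nearest named locus in kb. Density falls from 176 per Mb at 2 to 5 kb to 8.58 per Mb beyond 50 kb, and sharing from 82.6% to 30.1%.

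The description of these peaks as intergenic held for most of them when set against other annotation. The RefSeq genes of Release 6 overlapped 17 distal peaks. Of these, 8 lay in *tna*, a trithorax-group gene that had no named row in the table of the strains, and 9 lay in long non-coding RNA genes. The *tna* peaks included chr3L:10854390-10854738, with a pileup of 89 reads in OreR and 87 in eworo, and chr3L:10855469-10855831, with 87 reads in both.

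The table also holds 722 transcribed loci without a gene name, which the definition did not count as genes. In distal territory 376 of them covered 3.85% of the length, and 351 distal peaks (11.7%) overlapped one. These peaks were higher and longer than the others, with a median OreR pileup of 68 reads against 57 and a median length of 215 bp against 154 bp. Among short distal OreR peaks that overlapped no eworo peak, 6.92% lay at such a locus. Of the 177 distal unnamed loci that held a distal peak, 12 were above 1 FPKM in both strains by the authors' value per strain (6.78%). Among all 376 distal unnamed loci the count was 19 (5.05%), so the shares were close.

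Distal peaks were nearly as high as peaks close to genes. The pileup, the number of reads that cover the summit with each position and strand counted once, cannot exceed 100. Its median over the distal peaks was 59 reads in OreR (range 41 to 91) and 59 reads in eworo (range 40 to 93). Within 2 kb of named loci the medians were 60 and 60 reads, and inside them 64 and 64 reads. A pileup of 80 reads or more in OreR was found for 4.73% of distal peaks, 5.83% of peaks within 2 kb and 8.98% of peaks inside loci, and 89 distal peaks reached 80 reads in both strains. In length, distal peaks had a median of 159 bp, against 145 bp within 2 kb of loci and 158 bp inside them.

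The highest distal peaks were high in both strains. The first in OreR was chr3R:29210936-29211108, between *Cyt-c1L* and *CR31044*, with 91 reads in OreR and 86 in eworo. A peak of 90 reads in OreR and 87 in eworo (chr3L:8825194-8825401) lay 2104 bp from *dally*, which encodes a heparan sulphate proteoglycan that shapes the spread of morphogens. Between *Sp1*, a transcription factor gene of leg growth, and *CG1354*, and closer to *CG1354*, chrX:9771016-9771580 had 89 reads in OreR and 93 in eworo. It was 1 of 6 distal peaks with 89 reads in OreR, so the order among these is arbitrary. Of the others, chr2L:5427138-5427759 lay 10519 bp from *H15*, a T-box gene of the ventral leg, and chr3L:15264946-15265367 lay 22114 bp from *Tollo*, which encodes a Toll-family receptor, each with 86 reads in eworo. These pileups come near the limit of 100 reads, where the scale leaves little room for a difference.

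Heights in the strains were close for most distal peaks. The pileup was higher in eworo for 1281, lower for 1446 and equal for 277, and 74.5% lay within 10% of each other. The log2 ratio of eworo to OreR had a median of 0.00 and an SD of 0.14 over distal peaks, 0.13 over peaks within 2 kb of loci and 0.12 over peaks inside them. Across the distal peaks the Pearson correlation of the pileups was 0.859, beside 0.866 and 0.890 in the other classes, as a description of peaks that share their libraries. Summits of the strains lay within 25 bp of each other for 53.2%, 58.2% and 60.8% of the peaks in the same order. These values cover only peaks called in both strains, so peaks seen in a single strain are left out. The 780 short distal OreR peaks that overlapped no eworo peak had a median of 49 reads in OreR, against 59 for the distal peaks.

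A ratio past 1.25-fold was found for 104 distal peaks, 64 higher in eworo and 40 lower. They were 3.46% of distal peaks (2.87 to 4.18%), beside 2.84% within 2 kb and 2.11% inside loci. Some of the rises came from eworo peaks that spanned several OreR peaks. Where the eworo peak overlapped 1 OreR peak (2724 distal peaks), 24 were higher past 1.25-fold and 40 lower, and the SD of the log2 ratio was 0.13, against 0.18 for the 280 others. In the former set the largest ratio belonged to chr3L:12915838-12915887, 2192 bp from *CG32115*, with 46 reads in OreR and 75 in eworo. The smallest was that of chr2L:9486256-9486487, 4689 bp from *Gdi*, a regulator of Rab GTPases, with 69 reads in OreR and 47 in eworo. At chr3R:28578267-28578404, 2572 bp from the forkhead gene *fkh*, there were 65 reads in OreR and 46 in eworo, while *fkh* itself was at 0.0387, 0.191 and 0.120 FPKM in the eworo libraries, beside 0.150, 0.0937 and 0.124 FPKM in those of OreR. Without replicates of the peak lists these are differences between 2 pooled lists. A low OreR peak could not fall far and still be shared, since no distal peak had fewer than 40 reads in eworo.

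Most gaps showed little shift as a whole. Of the 223 gaps with 5 or more distal peaks, 207 had a median log2 ratio between -0.10 and 0.10, 5 had a higher one and 11 a lower one. The lowest belonged to the end of X, past the ribosomal RNA locus *2SrRNA:CR45864* (median -0.41), where 11 of 12 peaks were lower in eworo and the median was 62 reads in OreR and 47 in eworo. This stretch also held the 5 distal peaks farthest from any named locus, among them chrX:23429996-23430105 at 138267 bp, with 56 reads in OreR and 45 in eworo, and chrX:23390368-23390467 at 98639 bp, with 74 and 55.

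The gap between *CR43297* and *Lim1*, a LIM-homeobox gene of leg patterning, had the next lowest median (-0.22), with all 6 peaks lower in eworo and medians of 63.5 reads in OreR and 57 in eworo. *Lim1* RNA was at 10.3, 22.7 and 18.4 FPKM (eworo replicates 1 to 3) and 20.6, 20.0 and 25.1 FPKM (OreR replicates 1 to 3). The ranges overlapped and the difference did not pass the threshold (log2 difference -0.39 ± 0.30, limma adjusted p = 0.532). At the other end, all 5 peaks between *CR45082* and *CR44711* on X were higher in eworo, with medians of 52 reads in OreR and 56 in eworo (median log2 ratio 0.26). Of these OreR peaks 2 lay under the same eworo peak of 55 reads, and the median of 0.26 is the value of 1 of them. The gap between *CG42710* and *SoxN* came next (0.23), with a median of 52 reads in OreR and 73 in eworo. There 3 of the 7 OreR peaks lay under the same eworo peak of 73 reads, and the remaining 4 gave values of 48 and 47, 76 and 76, 53 and 45, and 52 and 61 reads in OreR and eworo.

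**Figure D2:**
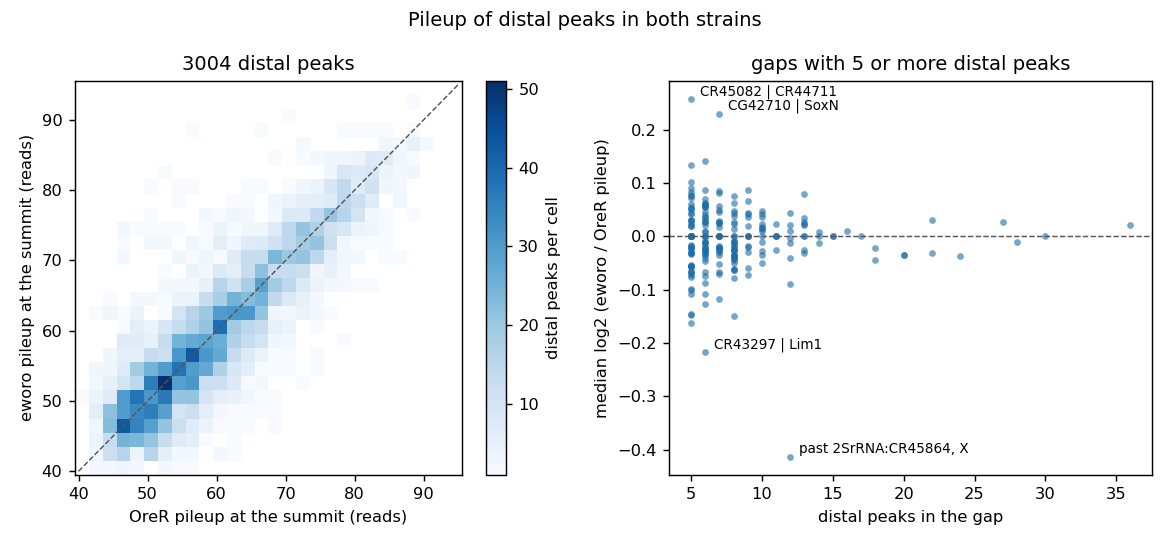
The left panel counts the 3004 distal peaks by summit pileup in OreR (x axis, reads) and eworo (y axis, reads), with darker cells for more peaks. The right panel plots, for each gap with 5 or more distal peaks, the median log2 ratio of eworo to OreR pileup against the number of distal peaks in the gap, and 207 of the 223 gaps lie between -0.1 and 0.1.

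Most distal peaks lay within 5 kb of another distal peak. The counts below were not set beside a random placement of peaks in the gaps. OreR peaks under the same eworo peak were counted separately. With peaks joined where the space between them was 5 kb or less, they fell into 1092 clusters, of which 485 held a lone peak (16.1% of distal peaks). The 192 clusters of 5 or more held 1401 peaks (46.6%), and 25 clusters held 10 or more. Median OreR pileup was 54 reads for lone peaks and 62 reads in the clusters of 5 or more. The largest cluster had 31 peaks in 39173 bp (chr3L:10913517-10952689), with OreR pileups of 48 to 80 reads and a median of 58. A cluster of 13 peaks in 12398 bp (chr3R:30258281-30270678), beside *CG18404* and nearest on its other side to the coding gene *hdc*, had a median of 78 reads in OreR and 79 in eworo. Its lowest peak in OreR had 68 reads, above the median of all distal peaks.

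The gaps between neighbouring named loci held very unequal numbers. A distal peak could lie in 1950 gaps and was found in 860, of which 336 held 1 peak and 53 held 10 or more. Those 53 gaps contained 768 distal peaks (25.6%), and the 10 richest gaps 247 (8.22%). The share of gaps with a distal peak rose with their length up to 40 kb and was lower in longer ones. It was 25.5% for gaps under 10 kb, 60.3% from 10 to 20 kb and 72.1% from 20 to 40 kb. Beyond this it was 63.2% from 40 to 80 kb and 57.5% for 80 kb or more. The median number per 10 kb of distal territory was 0 in gaps under 10 kb and 1.08 in gaps of 10 to 20 kb. It then fell to 0.788 at 20 to 40 kb, 0.330 at 40 to 80 kb and 0.0883 at 80 kb or more.

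The richest gap, on 3L between *Aps* and *CR45248*, (chr3L:10899226-10959230) held 36 distal peaks, with medians of 57 reads in OreR and 58.5 in eworo. A gap of 246 kb on 2R from *Pld* to *CR46075*, beyond which the nearest coding gene is *jing*, a zinc finger gene of tracheal and border cells, held 30. On 2R, 28 distal peaks lay between *CR45229* and *CG16894*. The fourth gap, with 27, ran from *NijA*, which encodes a Ninjurin adhesion protein, to *CG43245* on 3L and had higher peaks, with medians of 71 reads in OreR and 74 in eworo. The next pair lay on 3R, with 24 distal peaks between *AOX4* and *CG43335*, and 22 between *CG17843* and *Eip93F*, an ecdysone-induced transcription factor gene. The remaining gaps of these 10 were those of *CG43402* and *CG31928* on 2L with 20, of *Rcd2* and *knrl*, a nuclear receptor gene, on 3L with 20, and a pair that enclosed *Tollo*.

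*Tollo* was bordered by 40 distal peaks, the largest number of any gene in these 10 gaps, with 18 towards *CG6888* and 22 towards *Best4*. On the *CG6888* side pileups ran from 62 to 88 reads in OreR and from 60 to 86 in eworo. On the *Best4* side they ran from 42 to 89 in OreR and from 46 to 87 in eworo, and the peaks of 88 and 89 reads lay next to each other (chr3L:15265983-15266713 and chr3L:15264946-15265367). *Tollo* RNA was at 20.9, 37.7 and 23.9 FPKM in the 3 eworo libraries, against 40.04, 32.0 and 41.8 FPKM in the 3 of OreR, ranges that overlapped (log2 difference -0.48 ± 0.24, limma adjusted p = 0.391). *CG6888* and *Best4* were below 0.2 FPKM in all 6 libraries, while *Tollo* was above 20 FPKM in each of them.

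**Figure D3:**
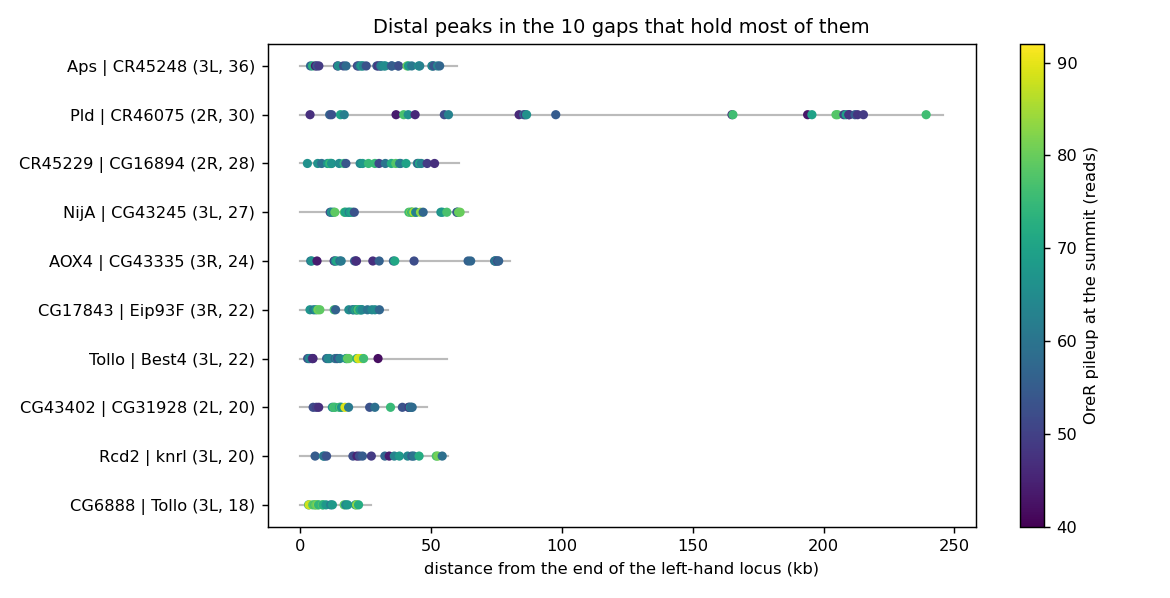
Each row is a gap between neighbouring named loci, the 10 with the most distal peaks, and each point a distal peak at its distance in kb from the end of the left-hand locus, coloured by OreR pileup in reads. Peaks are spread over the length of most of these gaps, and the gap from *CG6888* to *Tollo* holds no peak under 62 reads.

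No distal peak and no gap adjoined *ovo* (*svb*), the gene whose leg enhancers the study tested. In the table its locus is part of a bundle of 5 rows that share chrX:4956646-5070929, so its upstream region counts as lying inside a named locus. The bundle held 40 short shared peaks, none of which lay 2 kb or more from every RefSeq gene. With RefSeq genes in place of the table, 3267 peaks met the definition, of which 2972 were distal peaks and 235 lay inside a named locus.

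Genes bordering the distal peaks included many developmental regulators. Where several genes shared the locus at the edge of a gap, only the nearest by RefSeq position was counted as bordering it. Counted so, gaps with a distal peak had 1503 named genes at their edges. Of these, 1036 were protein-coding (68.9%, beside 79.9% of all named genes) and 399 were long non-coding RNA genes (26.5%, beside 10.4%). Of all 13661 protein-coding genes, 7.58% bordered such a gap. Among 239 developmental transcription factor genes 100 did (41.8%, 35.8 to 48.2%), among 88 genes for signalling ligands and receptors 26 did (29.5%, 21.0 to 39.8%), and among 107 genes of neuronal cell surfaces and synapses 28 did (26.2%, 18.8 to 35.2%). For 85 genes of cytosolic ribosomal proteins the count was 5 (5.88%, 2.54 to 13.0%). Of the leg epidermis markers 10 of 25 bordered distal peaks, and of the genes upstream in the trichome network 9 of 21. Marker lists of other cell types had 6 of 20 (neurons), 5 of 25 (muscle), 2 of 10 (tracheae), 1 of 13 (haemocytes) and 1 of 14 (fat body). These shares are descriptions, because genes of a family can lie side by side and long gaps have more room for peaks. The lists also share genes. All bordering leg epidermis markers except *obst-B* are listed transcription factors, and all bordering trichome network genes are listed transcription factors or signalling genes.

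**Figure D4:**
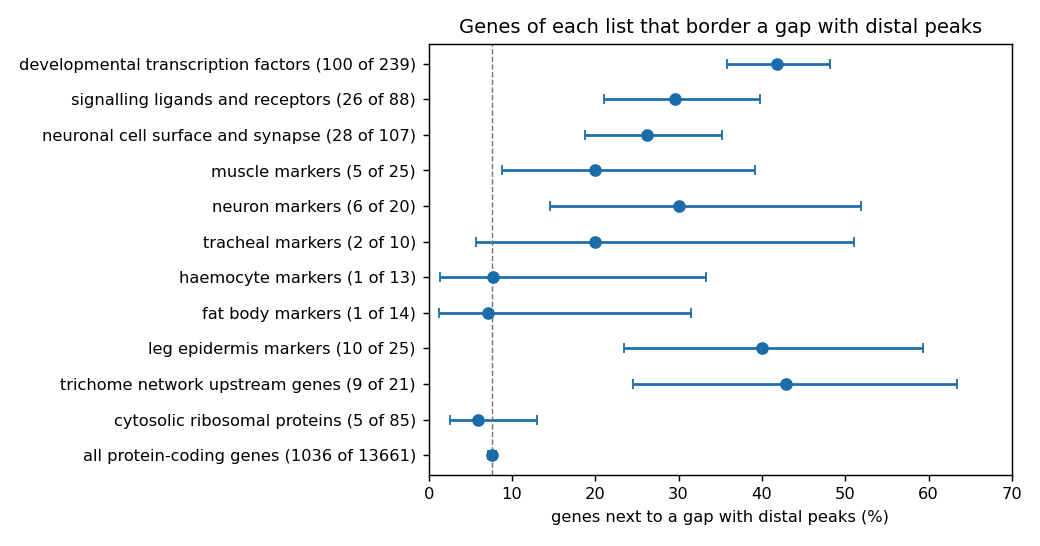
For each list of genes the point gives the percentage that borders a gap with distal peaks, and the bar its 95% Wilson interval. The dashed line marks all protein-coding genes at 7.58%, and developmental transcription factors stand at 41.8%.

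Several of these regulators pattern the leg. *en*, the selector gene of posterior compartments, bordered 23 distal peaks, and *wg*, the Wnt ligand of ventral cells, bordered 21, of which 13 lay in the gap it shares with *Wnt4*. The tarsal genes *bab1* and *bab2* faced each other across a gap with 14. The homeobox genes *Lim1*, *ap* and *al*, which act in the distal leg, bordered 13, 12 and 11, and the proximal gene *hth* 5. *Dll* and *dac*, which define the distal and middle leg, bordered 4 and 3. Of the 9 bordering genes upstream in the trichome network, *en* and *wg* came first, followed by *SoxN* with 12, *D* with 10, *Ser* with 7, *ptc* with 6, *ct* with 5, *jigr1* with 3 and *hh* with 2. *SoxN* and *D* encode Sox factors, *Ser* a Notch ligand, *ptc* the receptor of the ligand *hh*, and *ct* a homeodomain protein.

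Most of the leg genes among them were expressed. In eworo *al* was at 60.2, 54.7 and 52.7 FPKM and in OreR at 47.2, 61.2 and 58.8 FPKM, with overlapping ranges. For *en* the eworo libraries had 20.5, 22.5 and 23.3 FPKM and the OreR libraries 29.5, 33.8 and 29.4 FPKM. These ranges did not overlap, yet the difference did not pass the threshold (log2 difference -0.46 ± 0.10, limma adjusted p = 0.116). *wg* was at 21.8, 28.7 and 22.0 FPKM in the eworo libraries, beside 29.5, 25.8 and 30.1 FPKM in those of OreR (log2 difference -0.23 ± 0.14, limma adjusted p = 0.451). *D* stayed between 0.371 and 1.09 FPKM in the 6 libraries, and *oc*, a head gene that bordered 11 distal peaks, below 0.06 FPKM. Bordering many distal peaks thus went with both moderate and very low expression. Of the 100 bordering transcription factor genes 63 were expressed, of the 26 signalling genes 23, and of the 28 neuronal genes 13. Genes in a joined entry share its value, as *H15* and *mid* do, and *mirr*, *caup* and *ara*. These counts are therefore of genes and not of separate measurements.

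Over all bordering genes, fewer were expressed than in the genome at large. Of the protein-coding genes at gaps with a distal peak 44.6% were expressed (41.6 to 47.7%), against 39.6% (36.9 to 42.4%) at gaps of sufficient length without one and 58.0% (57.2 to 58.8%) of all. At gaps with 5 or more distal peaks the share was 51.3% (45.3 to 57.3%), and at gaps with 10 or more 57.8% (45.6 to 69.1%). In groups without shared genes, it was 42.4% (38.9 to 45.9%, 327 of 772) at gaps with 1 to 4 distal peaks only and 49.2% (42.3 to 56.2%, 97 of 197) where the richest gap held 5 to 9. In single libraries the share above 1 FPKM ran from 39.6 to 40.4% at gaps without distal peaks, from 40.5 to 44.04% at gaps with 1 to 4, from 48.7 to 51.3% with 5 to 9 and from 56.2 to 62.5% with 10 or more. It was thus higher in each step in all 6 libraries, which measure the same genes, while the Wilson intervals of neighbouring steps overlapped. No test of this order was run. Of 398 bordering long non-coding RNA genes with values, 3.52% were expressed (2.11 to 5.82%).

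The strains were compared at bordering genes with limma over all 4846 entries that had the same name in each library and a mean above 1 FPKM. Of these, 128 passed an adjusted p of 0.05 (2.64%), with 84 higher in eworo (1.73%) and 44 lower (0.908%). Bordering entries numbered 388, of which 12 were higher and 3 lower (3.87%). At gaps with 5 or more distal peaks 2 of 106 entries were higher and 1 lower (2.83%), and among entries that border only gaps without distal peaks 4 of 388 were higher and 4 lower (2.06%). The share of differing genes near many distal peaks was thus close to that of all genes. When any 1 library was left out, 5 to 7 of 380 to 388 bordering entries passed. The share over all entries is not given for these fits, so the lower counts cannot be read as particular to bordering genes.

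On the log2(FPKM + 1) scale the largest rise was that of *CR40469*, a non-coding RNA gene at the start of X, with 5874, 6673 and 6228 FPKM (eworo replicates 1 to 3) and 485, 390 and 351 FPKM (OreR replicates 1 to 3) (log2 difference 3.95 ± 0.14, limma adjusted p = 0.000164). It bordered 1 distal peak, of 47 reads in OreR and 52 in eworo. The joined entry of *CG18586* and *CG5568* was at 8.21, 7.26 and 8.37 FPKM in the 3 eworo libraries, against 0.0320, 0.0915 and 0.0628 FPKM in the 3 of OreR (log2 difference 3.07 ± 0.15, limma adjusted p = 0.000499). That scale understates the change of low genes, and with a pseudocount of 0.1 this entry had the larger log2 difference, 5.65 beside 3.95 for *CR40469*. It faces *vn*, an EGF receptor ligand gene, across a gap with 10 distal peaks, whose medians were 64.5 reads in both strains. *CG5888* was at 640, 563 and 477 FPKM in the eworo libraries, beside 134, 143 and 137 FPKM in those of OreR (log2 difference 2.00 ± 0.12, limma adjusted p = 0.00153), with 3 distal peaks in the gap beside it and medians of 57 and 58 reads. At each of these genes the libraries of the strains were far apart while the distal peaks beside them had similar heights. They passed the threshold in every alternative analysis that gave them a value, unlike the other 12 entries.

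*CG44476* was at 3.44, 3.60 and 3.96 FPKM (eworo replicates 1 to 3) and 0, 0.503 and 0.423 FPKM (OreR replicates 1 to 3) (limma adjusted p = 0.0192, or 0.108 with a pseudocount of 0.1). Its gap held 2 distal peaks with medians of 69.5 reads in OreR and 57.5 in eworo, the opposite direction to the RNA. *Cpr12A*, a cuticle protein gene, was at 627, 411 and 357 FPKM in the 3 eworo libraries, against 102, 123 and 159 FPKM in the 3 of OreR, and passed in no fit that left out a library. *CG4408* was at 2.205, 1.83 and 2.85 FPKM in eworo and is listed at 0 in all 3 OreR libraries, whereas the authors' value per strain, from Cuffdiff, was 2.21 FPKM in eworo and 7.01 in OreR. It passed the limma test (adjusted p = 0.0191, or 0.0223 with a pseudocount of 0.1), and no fold is given against 0. The 3 falls were the joined entry of *CG4998* and *CR45893* (12.9, 8.38 and 7.93 FPKM in the eworo libraries, beside 29.7, 42.9 and 29.9 FPKM in those of OreR), the joined entry of *CG18278* and *CG30059* (9.74, 7.86 and 10.3 against 25.0, 30.6 and 19.7 FPKM) and *beat-IIa*. The last, a neuronal cell surface gene next to 5 distal peaks, was at 7.60, 8.13 and 8.56 FPKM (eworo replicates 1 to 3) and 13.1, 14.8 and 14.8 FPKM (OreR replicates 1 to 3) (log2 difference -0.74 ± 0.11, limma adjusted p = 0.0341), and it too passed in no fit without a library. Beside *beat-IIa* the distal peaks had medians of 48 reads in OreR and 47 in eworo.

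**Figure D5:**
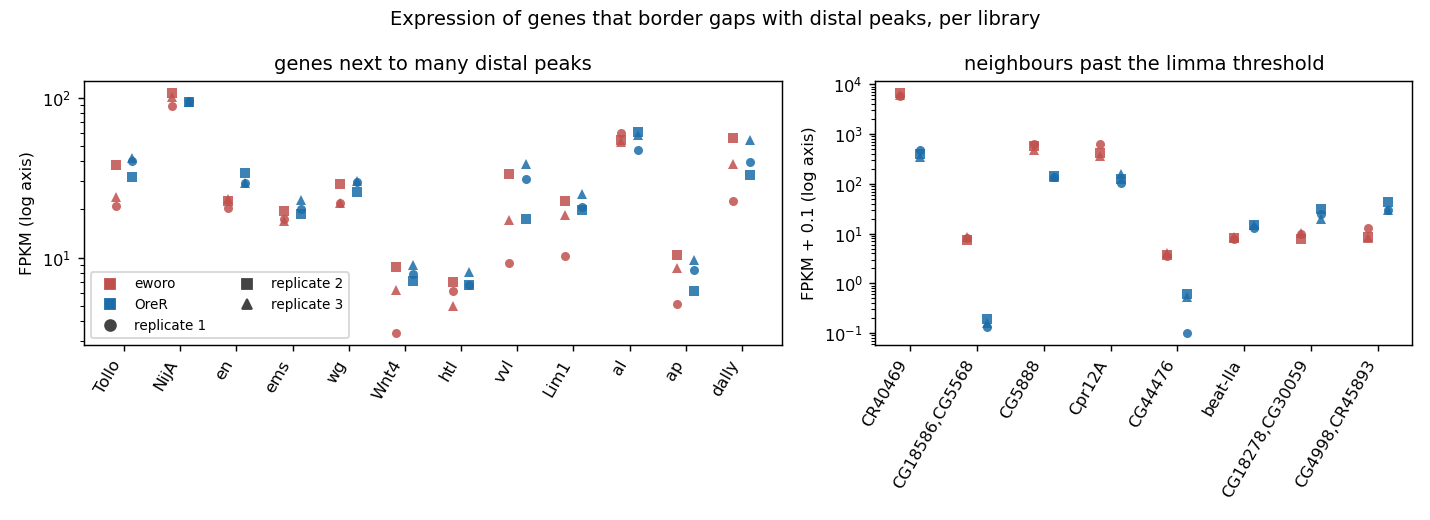
The left panel shows FPKM per library (log axis) of genes that border many distal peaks, and the right panel FPKM + 0.1 (log axis) of the 5 largest rises and the 3 falls past the limma threshold, with the strains in different colours and a symbol for each replicate. In the right panel *CR40469* lies between 5874 and 6673 FPKM in eworo and between 351 and 485 FPKM in OreR.

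No transcription factor entry at a distal peak passed the test, but most leaned the same way. Of 46 such entries 41 had a log2 difference below 0, with a median of -0.28. Over all 388 bordering entries 236 were below 0 with a median of -0.12, and over all 4846 entries 2491 were, with a median of -0.01. An unadjusted limma p under 0.05 was found for 5 of the 46 (10.9%), fewer than the 739 of 4846 (15.2%) among all entries. Signalling genes had 19 of 22 below 0 with a median of -0.38, none past the adjusted threshold and 2 at an unadjusted p under 0.05 (9.09%). Among neuronal surface genes 11 of 13 were below 0 with a median of -0.38, of which *beat-IIa* passed. Trichome network genes had 7 entries, 6 of them below 0, with none past the adjusted threshold and 2 at an unadjusted p under 0.05. All bordering trichome network genes are also in the transcription factor or signalling list, so they repeat part of those counts.

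The lean of these lists depended on single libraries, and its medians were smallest in size without eworo replicate 1. Among the 6 libraries eworo replicate 1 was the lowest for 31 of the 46 transcription factor entries, 15 of the 22 signalling entries, 11 of the 13 neuronal surface entries and 6 of the 7 trichome network entries, beside 1213 of all 4846. Without it, 30 of 46 transcription factor entries were below 0 with a median of -0.10, 14 of 22 signalling entries with -0.09, 9 of 13 neuronal surface entries with -0.16 and 4 of 7 trichome network entries with -0.15. Without OreR replicate 3, 31 of 42 transcription factor entries were below 0 and the median was -0.16. The lean of these entries grew without eworo replicate 2 (40 of 45 below 0, median -0.45) and without OreR replicate 2 (41 of 46, -0.42). Markers of cell types at distal peaks leaned likewise, but these lists share genes with those above and are not independent of them. Every bordering leg epidermis marker except *obst-B* is also a listed transcription factor. So are *repo* and *scrt* of the neuron list and the tracheal markers *vvl* and *dysf*. Of the leg epidermis entries 6 of 7 were below 0 (median -0.27), as were all 6 neuron entries (-0.29), 3 of 4 muscle entries (-0.23) and both tracheal entries (-0.34). Without eworo replicate 1 these were 5 of 7 (-0.08), 4 of 6 (-0.18), 3 of 4 (-0.16) and 1 of 2 (-0.04). The part of tissue makeup in these shifts was not tested. *vvl*, a POU factor gene next to 15 distal peaks, varied widely within each strain, with 9.27, 33.3 and 17.2 FPKM in the eworo libraries, beside 31.0, 17.4 and 38.4 FPKM in those of OreR.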

How the data were processed

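The authors mapped reads to Release 6 of the *D. melanogaster* genome. RNA-Seq reads were aligned with TopHat2 2.1.1, and the deposited FPKM per library came from Cufflinks 2.2.1, without scaling between libraries, and the FPKM per strain from Cuffdiff. ATAC-Seq reads were aligned with Bowtie2, freed of duplicates, shifted for the transposase and pooled per strain. Per the file headers, peaks were called with MACS2 2.1.1.20160309 without a control at a q-value of 1%, with an extension size of 50 bp. For each peak the authors deposited the pileup signal at the summit, its ratio (fold) to the local background and the −log10 of the q-value. Tags at the same position and strand were kept once, and pileups were not scaled between strains. Columns of the authors' own comparison (fold changes, p-values and q-values) were not used.

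Loci were those of the table of the strains with a gene name. Overlapping genes share a locus there, and Cufflinks joined overlapping genes in entries whose names can differ between libraries, so a gene took the value of the entry that held it. Strains were compared with limma 3.58.1 in R 4.3.3 on log2(FPKM + 1) for entries with the same name in all 6 libraries and a mean above 1 FPKM, each library divided by its median ratio to the geometric mean, with strain as the only term, a trend in the variance and Benjamini-Hochberg adjustment over all entries. Errors of log2 differences are standard errors. Per the study's methods, the legs of each replicate were dissected from a separate pool of pupae. FPKM do not give the depth of a library. The fit and the overlap of peaks were tested on simulated data. Python 3.11.15, pandas 2.3.3, scipy 1.17.1 (Wilson and exact Poisson intervals at 95%) and matplotlib 3.10.9 were used.

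The peaks described and the gene lists were chosen with earlier results of these data known. Genes were named where they bordered the 10 richest gaps, *ovo*, the 5 highest or the 5 farthest peaks, or were among the 5 largest rises and falls, with up to 4 genes per list. Further genes (*jing*, *hdc*, *tna*, *fkh*, *Gdi*, *CG32115*, *CG4408*, *oc*, the leg and trichome genes past the fourth of their list, and the gaps with the extreme pileup ratios) were chosen after their values had been seen. No sequences of the peaks were analysed here. Alternatives are given in the closing section.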

Additional observations from a re-analysis of the deposited data

How the results depend on the processing

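The median pileup of 59 reads changed by less than the SD between peaks under all 7 alternative definitions. The number of distal peaks was 1567 at 5 kb from named loci and 1745 with a −log10 q of 5 or more, and stayed within 1.5 times of 3004 otherwise. Density was 138 per Mb at 1 kb, 96.2 at 5 kb, 99.7 with an overlap of 50% of both peaks, 71.4 with a −log10 q of 5 or more, 104 when unnamed loci counted as genes, and 162 without gaps of 80 kb or more, the last chosen after seeing the data. Clusters of 5 or more numbered 102 when joined within 2 kb. Of bordering genes 32.2% were expressed, 35.7% at 0.5 FPKM, 24.7% at 5 FPKM, and 44.6% of protein-coding genes alone, also chosen after seeing the data. Bordering entries past the threshold numbered 15 of 388 (3.87%, beside 2.64% of all 4846 entries). They numbered 9 of 277 with a mean above 5 FPKM and 5 to 7 of 380 to 388 without 1 library. With a replicate block 3 of 388 passed. The shares over all entries are not given for these alternatives. Deviations of same-numbered libraries from the mean of their strain correlated at -0.04, -0.11 and 0.05. Those of differently numbered libraries ran from -0.20 to 0.23. These values showed no pairing by number, but 3 libraries per strain are too few to settle it. No called difference changed sign. The causes of these shifts were not tested. Windows of sequence around summits, 300 or 200 bases, were not run. Pileups near 100 and pooled replicates limit what the peak lists can show.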
